A study of Mus musculus with 36 samples.

Results

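Klrg1 (ENSMUSG00000030114) encodes an inhibitory receptor of natural killer (NK) cells and T cells. Its level was followed through every group of an RNA sequencing study of mouse NK cells that differ in education, in genotype and in stimulation. The gene is 1 of 56925 genes listed in the study's 4 tables of TPM, a unit that divides reads by transcript length and scales each library to a common total. It was taken up because its measured values differ between these groups. Its levels and differences are therefore given as a description, with no test, and tests are kept for other genes. In the GENCODE vM21 annotation of GRCm38 the gene lies on chromosome 6 and has 1 transcript, with 5 exons and a spliced length of 1414 bases. The study's own build was GRCm39, per the submitters' processing notes, so no positions are given.

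KLRG1 is a C-type lectin-like receptor whose cytoplasmic tail carries an inhibitory motif (ITIM), and its known ligands are classical cadherins. On binding, such motifs recruit phosphatases that dampen activating signals. In mouse NK cells KLRG1 appears late in maturation and is widely used as a marker of mature cells. NK cell education is the setting of responsiveness by inhibitory receptors that bind self MHC class I, and B2m, the shared light chain of class I molecules, is needed for most surface class I.

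Of the 36 libraries, 18 came from mature splenic NK cells sorted as CD27- and CD11b+. Cells positive for all of Ly49C, Ly49I and NKG2A are called TP, cells positive for Ly49I alone SP, and cells negative for all 3 TN. All 3 subsets were sorted from WT C57BL/6 mice (B2m+/+) and from B2m-/- mice, here called KO, with 3 libraries per group. Another 6 libraries came from NK cells purified from WT splenocytes after 22 h in culture. These cultures received either vehicle or ionomycin, which lets calcium into cells, with 3 libraries each. A further 9 came from splenic NK cells of WT mice kept for 48 h in medium or with plate-bound antibodies to activating receptors. One antibody pair bound NKp46 and NKG2D, the other NKp46 and DNAM-1, with 3 libraries per group. The last 3 came from CD27- CD11b+ NK cells of C57BL/6 mice that had carried subcutaneous MC38 tumours without B2m for 10 days. MC38 is a mouse colon carcinoma line. The age and sex of the mice and the ionomycin dose are not given in the sources used here. Labels call replicates biological without saying more, so p-values measure the spread between these samples.

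Labels and cell markers were checked first. B2m ran from 2915 to 3420 TPM in the 9 WT subset libraries and from 73.9 to 128 TPM in the 9 KO libraries. The 7 NK cell markers were all detected, and their summed level was at least 5104 TPM in every library of the 4 tables. The T cell genes Cd3e, Cd3d, Cd3g, Cd4, Cd8a and Cd8b1 summed to at most 17.6 TPM in the subset libraries. For 6 of the 9 antibody samples the group in the sample's title differs from the group in the table column that its description names. Each title group holds 1 library of each column group, all with the same replicate number. The column names were followed, and values by title stand beside the results they touch. The tumour columns carry the terms B2MKO and SP, left unexplained by their titles. B2m stood at 5196, 3929 and 4536 TPM in the 3 tumour libraries. TPM keep no depth, so precision rests on the 3 libraries per group. Genes above 0 per library ran from 12290 to 18096.

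Klrg1 was highest in WT TP cells, and in both genotypes it went down from TP to SP to TN. In WT TP cells it stood at 454, 460 and 397 TPM (437 ± 34.6, SD, n = 3). WT SP cells held 298, 218 and 223 TPM (246 ± 45.0, SD, n = 3). WT TN cells held 78.9, 61.6 and 69.3 TPM (69.9 ± 8.63, SD, n = 3). These 3 WT groups did not overlap. WT TN cells thus had 6.25 times less Klrg1 than WT TP cells, a log2 difference of -2.63 (SE 0.122). The step from TP to SP was -0.84 (SE 0.160) and the step from SP to TN was -1.79 (SE 0.177), so 31.8% of the log2 difference lay between TP and SP. Of the 12018 genes tested in this table, 36 (0.300%) had a WT TN minus TP difference at least as low as that of Klrg1.

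**Figure D1:**
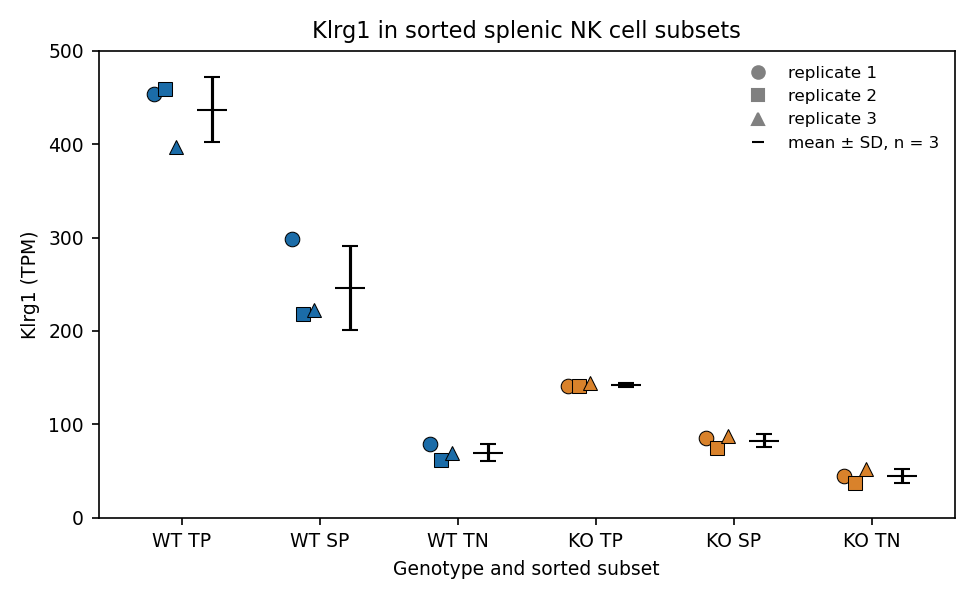
Klrg1 in TPM (y axis) in the 6 groups of sorted splenic NK cells (x axis), with 1 point per library and the mean ± SD beside it (n = 3). Within each genotype the TP libraries are highest and the TN libraries lowest, and WT libraries lie above KO libraries of the same subset, with no overlap.

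KO cells held less Klrg1 than WT cells of the same subset, and the order of the subsets was the same. KO TP cells stood at 141, 141 and 144 TPM (142 ± 2.01, SD, n = 3). KO SP cells stood at 85.4, 74.7 and 87.7 TPM (82.6 ± 6.95, SD, n = 3). KO TN cells stood at 45.1, 37.2 and 52.4 TPM (44.9 ± 7.60, SD, n = 3). All 3 KO groups were apart from each other, and every KO TP library lay below the lowest WT SP library. The KO TN minus TP difference was -1.65 (SE 0.140) on the log2 scale, a 3.17-fold lower level. Of that difference, 47.1% lay between TP and SP, where the step was -0.78 (SE 0.0718). The step from SP to TN was -0.88 (SE 0.157), against -1.79 in WT cells.

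Between the genotypes, Klrg1 was 3.07 times lower in KO than in WT TP cells, a log2 difference of -1.61 (SE 0.0683). In SP cells it was 2.98 times lower, at -1.55 (SE 0.161). The gap was narrower in TN cells, at 1.56 times and -0.63 (SE 0.173). Stated the other way, the TN minus TP difference was 0.98 log2 units deeper in WT than in KO cells (-0.976), of which the SP to TN step held -0.918 and the TP to SP step -0.058. Whether these gaps differ was not tested, since Klrg1 was chosen with its values known.

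Ordered by mean, the 6 groups ran WT TP, WT SP, KO TP, KO SP, WT TN and KO TN. The only neighbours in that order whose libraries overlapped were KO SP and WT TN, which differed by -0.24 (SE 0.124). WT SP and KO TP, the neighbours across the genotypes above them, were 1.73-fold apart. Each such value is the mean over the sorted cells of a library, so fewer cells that express Klrg1 and less Klrg1 RNA per cell cannot be told apart.

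Markers of other cells differed between these groups, most in KO TP. The 6 neutrophil and monocyte markers summed to between 61.9 and 224 TPM in the KO TP libraries, to between 11.4 and 14.6 in WT TP, and to at most 6.87 in the other 4 groups. S100a9, a neutrophil gene, was 13.2, 52.3 and 95.1 TPM in KO TP and listed at 0 in the 3 WT TP libraries. B lineage markers summed to between 391 and 668 TPM in KO TP and to at most 335 elsewhere in the table. The 6 T cell markers summed to between 12.5 and 17.6 TPM in KO TP and to between 3.35 and 4.96 in WT TP. Between TP and TN cells of WT mice, B lineage sums ran from 163 to 180 TPM in TP and from 280 to 335 in TN. The 5 markers of type 1 innate lymphoid cells summed to between 14.5 and 25.2 TPM in WT TP against 5.09 to 7.71 in WT TN, and to between 23.4 and 27.6 in KO TP against 6.45 to 14.0 in KO TN. Klrg1 in the 3 KO TP libraries lay within 3.68 TPM of each other while the neutrophil and monocyte sum differed 3.62-fold between them. The part of these cells in the Klrg1 values was not tested.

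Ranked within a library, Klrg1 in WT TP cells stood above 97.4% to 97.8% of all genes detected, and in KO TN cells above 60.8% to 72.1%. TPM divide by length, which allows levels of different genes to be set side by side. Among Klrg1 and 15 listed inhibitory receptors outside the Ly49 family, with Lilrb4a taken once at the higher of its 2 entries, Klrg1 was the most abundant in all 3 WT SP libraries. It ranked 2 in every WT TP library and 3 in every KO TP library. In KO TN cells it ranked 4 or 5. Klrc1, which encodes the NKG2A used to sort TP cells, was above it in WT TP cells at 864 ± 9.73 TPM (SD, n = 3).

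The ligands and the signalling partners of KLRG1 were examined next. Cdh1, Cdh2 and Cdh4, which encode the cadherins of the ligand list, did not reach a mean of 1 TPM in any table with a comparison and were not tested. In the tumour table, which has no comparison, Cdh1 stood at 2.95 ± 1.56 TPM and Cdh2 at 1.28 ± 1.36 TPM (SD, n = 3). Cdh4 was listed at 0 in every library. KLRG1 is described to act through SHIP-1 and SHP-2, encoded by Inpp5d and Ptpn11, and neither gene passed the test in any of the 6 comparisons made. Inpp5d means lay between 232 and 266 TPM across the 6 subset groups, and Ptpn11 means between 62.4 and 70.2 TPM.

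Ptpn6, which encodes the related ITIM-binding phosphatase SHP-1, did pass. It was 151 ± 16.0 TPM in WT TP and 307 ± 46.3 TPM in WT TN cells (SD, n = 3), a log2 rise of 1.02 (limma with Benjamini-Hochberg adjustment over all genes tested, adjusted p = 0.00209). KO TP cells held 353 ± 24.5 TPM (SD, n = 3), 1.23 higher than WT TP (limma, adjusted p = 0.000239). KO TN cells held 314 ± 46.2 TPM (SD, n = 3) and differed from KO TP by -0.18 (limma, adjusted p = 0.992). The difference between the genotypes in the TN minus TP change of Ptpn6 missed the threshold (limma interaction, 1.20 with SE 0.227, adjusted p = 0.0808). Ptpn6 was thus higher where Klrg1 was lower in WT TN and in KO TP cells, each against WT TP. In KO TN against KO TP cells Klrg1 was 3.17 times lower, while Ptpn6 differed by -0.18 without passing. Markers of other cells also differed between these groups, as given above, and their part in the Ptpn6 values was not tested.

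Genes of NK cell maturation were counted from lists. Over all genes tested, limma called 1.31% between WT TN and WT TP (157 of 12018, 82 higher and 75 lower in TN), with 101 without WT TN replicate 1 and 104 without WT TP replicate 2. Of the 10 late maturation genes, 5 fell in WT TN cells and 0 rose, with a median log2 difference of -0.39 over the list against -0.01 over all genes. Cx3cr1, a chemokine receptor of mature NK cells, fell from 125 ± 16.5 to 26.0 ± 5.74 TPM (SD, n = 3), by 2.23 on the log2 scale (limma, adjusted p = 3.94e-06). Ly6c2, which encodes the Ly6C surface antigen, fell from 1400 ± 82.6 to 641 ± 66.8 TPM (SD, n = 3), by 1.13 (limma, adjusted p = 0.000299). The other 3, S1pr5, Gzmb and Prf1, fell by 0.33 to 0.45, and each of those calls was lost when a single library was left out.

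Early maturation genes split. Of 10, 3 rose and 1 fell in WT TN cells, and the list's median was 0.05. Cd27, which marks immature cells and was used to sort these cells as negative, rose from 97.3 ± 17.8 to 190 ± 17.9 TPM (SD, n = 3), by 0.97 (limma, adjusted p = 0.000527). Ctla2a, a cysteine protease inhibitor gene, rose by 0.96 (limma, adjusted p = 6.06e-05). Tcf7, which encodes the transcription factor TCF-1, rose by 0.45 (limma, adjusted p = 0.0376), a call lost when any 1 of 4 libraries was left out (adjusted p from 0.0895 to 0.156). Thy1, a surface glycoprotein gene, fell by 2.13 (limma, adjusted p = 0.000626).

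Among the 15 transcription factors of NK maturation, 2 rose, 1 fell and 12 did not pass in WT TN cells. Eomes, a T-box factor of NK cells, rose from 319 ± 10.3 to 531 ± 38.7 TPM (SD, n = 3), by 0.73 (limma, adjusted p = 4.82e-05). Id2, needed for NK cell development, fell from 1078 ± 30.3 to 567 ± 69.5 TPM (SD, n = 3), by 0.93 (limma, adjusted p = 7.75e-07). The other riser was Tcf7, named above. The 12 that did not pass lay between -0.58 and 0.50.

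In KO cells limma called 0.524% of genes between TN and TP (63 of 12018, 29 higher and 34 lower in TN), with 40 without KO TP replicate 2. Of the late maturation genes, 2 of 10 fell and 0 rose: Cx3cr1 by 1.57 (limma, adjusted p = 0.000316) and Ly6c2 by 1.21 (limma, adjusted p = 0.000182). Both had fallen in WT cells as well. Of the early genes, 2 of 10 rose, namely Tcf7 by 0.99 (limma, adjusted p = 3.45e-05) and Ctla2a by 0.92 (limma, adjusted p = 0.00015). Id2 fell by 0.60 (limma, adjusted p = 0.000202) and Tcf7 was the only called riser among the factors. No gene of the 6 lists passed the limma test of whether WT and KO cells differ in their TN minus TP change, where 14 of 43 entries had an unadjusted p under 0.05.

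Between KO TP and WT TP cells limma called 1.59% of genes (191 of 12018, 118 higher and 73 lower in KO). Rescaling the libraries by median ratios gave 94 higher and 93 lower. Leaving out KO TP replicate 1 or 3 gave 109 or 117 calls, and leaving out any 1 WT TP library 119 to 123. None of the 10 late maturation genes passed here, with 7 at an unadjusted p under 0.05 and a range from -0.70 to 0.52. Of the early genes, 3 of 10 fell and 0 rose. Kit, the stem cell factor receptor gene, fell from 48.1 ± 4.71 to 2.12 ± 0.46 TPM (SD, n = 3), by 3.98 (limma, adjusted p = 3.81e-06). Tcf7 fell by 0.64 (limma, adjusted p = 0.00264). Thy1 fell by 1.31 (limma, adjusted p = 0.0345), which was lost without any single one of the 6 libraries (adjusted p from 0.0551 to 0.193). Klrg1 was 3.07-fold lower in the same comparison, beside the neutrophil and B lineage markers given above.

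Other inhibitory receptors moved in both directions. In WT TN against TP cells, 1 of 9 tested entries rose and 2 fell, with Lilrb4a listed under 2 identifiers. Tigit, a receptor for nectin family ligands, rose from 8.00 ± 2.72 to 38.7 ± 13.3 TPM (SD, n = 3), by 2.12 (limma, adjusted p = 0.00269). Klrb1b, of the NKR-P1 family, fell by 1.44 (limma, adjusted p = 5.14e-07), and the sort marker Klrc1 fell by 5.28. In KO TN against TP cells, Klrb1b fell by 1.66 (limma, adjusted p = 8.64e-08) and Klrc1 by 5.58, with 0 of 9 entries rising. In KO against WT TP cells, Klrb1b rose by 1.08 (limma, adjusted p = 1.69e-05) and Tigit by 2.62 (limma, adjusted p = 0.00025). Tigit stood at 55.5 ± 23.0 TPM in KO TP cells (SD, n = 3). Reads of the NKR-P1 genes can be shared between near-identical copies, so Klrb1b values are uncertain.

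**Figure D2:**
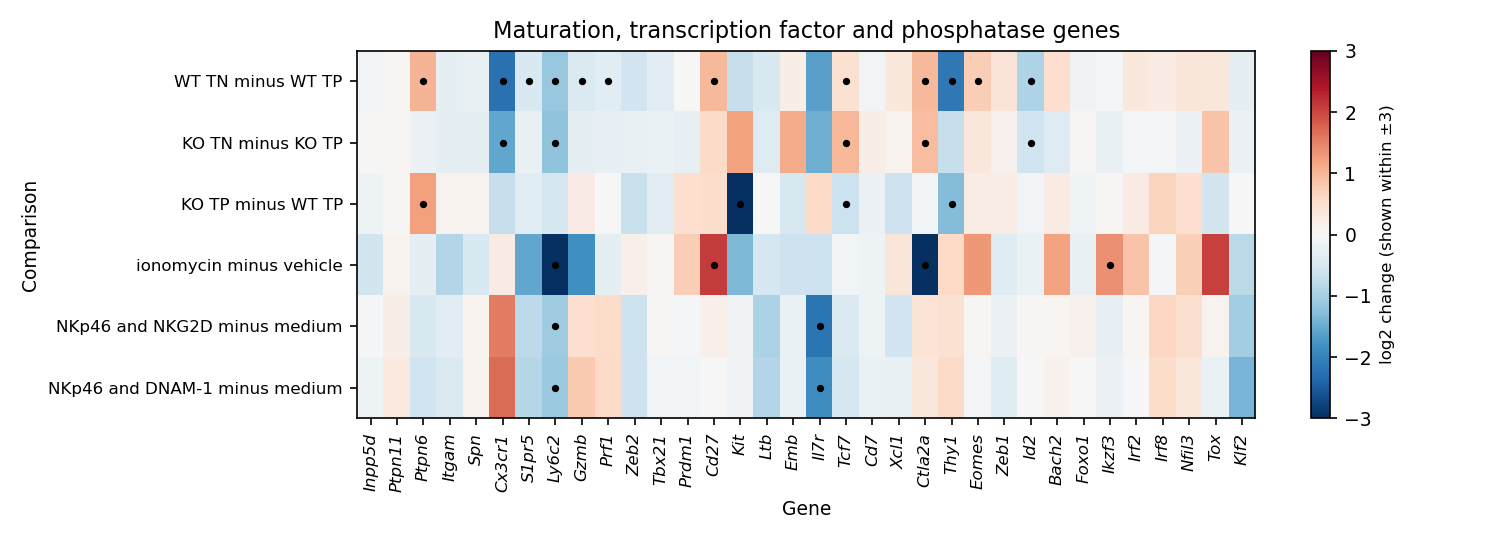
Log2 change (colour, shown within ±3) of the phosphatase, late maturation, early maturation and transcription factor genes (x axis) in 6 comparisons (y axis), with a dot where limma called the gene. Cx3cr1 and Ly6c2 carry dots in both TN minus TP rows, and Ly6c2 is the only gene with a dot in the WT TN, KO TN, ionomycin and both antibody rows.

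Which genes had a profile most like Klrg1 across the 18 subset libraries was asked of the 8287 genes that averaged 10 TPM or more. The highest Pearson correlations with Klrg1 were those of Cx3cr1 (r = 0.941), Ly6c2 (r = 0.939), Arl4c (r = 0.918), S1pr5 (r = 0.917) and Hopx (r = 0.909), each over 18 libraries. S1pr5 is the sphingosine phosphate receptor of mature NK cells, Arl4c a small GTPase gene and Hopx a homeodomain-only protein gene. The lowest were Klra7 (r = -0.950), Cd27 (r = -0.948) and Klrb1 (r = -0.905). Klra7 is a Ly49 gene whose reads, like those of Klrb1, can be shared with close relatives. These points share 6 group means, since the 18 libraries fall into 6 groups.

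With the group means removed, the correlation was 0.672 for Cx3cr1, 0.573 for Ly6c2 and 0.488 for S1pr5. It was -0.588 for Cd27. It lay between -0.142 and 0.063 for Arl4c, Hopx, Klra7 and Klrb1. The genes were picked on a correlation over the same libraries, which includes this part, so these values are no separate evidence of likeness.

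**Figure D3:**
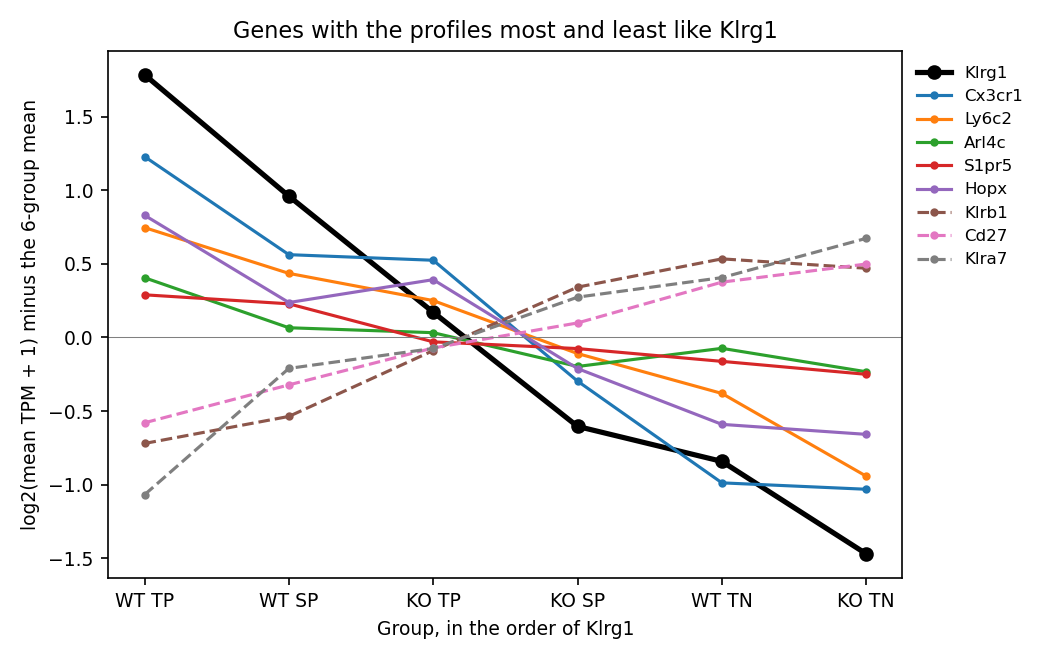
The log2 of the mean TPM + 1 minus its mean over the 6 groups (y axis) in the 6 subset groups, in the order of Klrg1 (x axis), for Klrg1 (thick black line), the 5 genes most like it (solid) and the 3 least like it (dashed). Klrg1 spans the widest range, from WT TP at the top to KO TN at the bottom, and the dashed genes run the other way.

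Klrg1 was lower with ionomycin than with vehicle. In vehicle the 3 libraries stood at 334, 149 and 38.9 TPM (174 ± 149, SD, n = 3), and with ionomycin at 5.40, 9.42 and 3.51 TPM (6.11 ± 3.02, SD, n = 3). The groups did not overlap, although the highest vehicle library was 8.59 times the lowest. The mean was 28.5 times lower with ionomycin, and the mean log2 difference was -4.23 (SE 0.961). Leaving out 1 library at a time kept it between -5.06 (without vehicle replicate 3) and -3.53 (without vehicle replicate 1). Of the 14372 genes tested in this table, 11 (0.0765%) had a difference at least as low. Klrg1 stood above 63.5% to 96.9% of detected genes in vehicle and above 28.2% to 41.8% with ionomycin.

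Cell markers differed within both groups of this table. In vehicle replicate 3, which had the least Klrg1 of the vehicle libraries, the 6 neutrophil and monocyte markers summed to 282 TPM, against 0 and 2.19 in vehicle replicates 1 and 2. Klrg1 also differed between vehicle replicates 1 and 2, at 334 and 149 TPM. In ionomycin replicate 3 they summed to 121 TPM, against 7.11 and 2.18 in ionomycin replicates 1 and 2. The 7 NK cell markers summed to between 6135 and 9719 TPM in vehicle and to between 5104 and 6292 TPM with ionomycin. They moved in both directions, with log2 differences from -2.64 to 1.30, and limma called 1 lower and 0 higher. One that was lower was Ncr1, at 800, 1073 and 512 TPM in vehicle and 141, 135 and 94.0 TPM with ionomycin. Without vehicle replicate 3 the Klrg1 difference was larger, as given above. The part of these markers in the spread of Klrg1 was not tested.

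Limma called 2.91% of genes between ionomycin and vehicle (418 of 14372, 238 higher and 180 lower). Of 49 entries of the 6 lists tested, 6 passed, or 12.2%. Ly6c2 fell from 118 ± 79.3 to 3.74 ± 5.80 TPM (SD, n = 3), by 5.04 (limma, adjusted p = 0.0346), and was the only called one of 10 late maturation genes. Cd27 rose from 89.0 ± 45.0 to 342 ± 42.2 TPM (SD, n = 3), by 2.09 (limma, adjusted p = 0.0337). Ctla2a, another early gene, fell by 3.16 (limma, adjusted p = 0.0197). Ikzf3, the gene of the factor Aiolos, rose by 1.37 (limma, adjusted p = 0.042). Klrg1 was thus low with ionomycin beside a fall of Ly6c2 and a rise of Cd27, but neither list moved as a whole. The 10 late genes ran from -5.04 to 0.745, with a median of -0.37. The early genes ran from -3.16 to 2.09, with a median of -0.34, and Ctla2a went against Cd27.

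Inhibitory receptors that passed with ionomycin rose, while Klrg1 was lower. Tigit rose from 149 ± 112 to 1203 ± 63.5 TPM (SD, n = 3), by 3.25 (limma, adjusted p = 0.00739). Lag3, a checkpoint receptor gene, rose from 22.3 ± 16.6 to 386 ± 148 TPM (SD, n = 3), by 4.35 (limma, adjusted p = 0.0099). The other 13 of 15 tested entries did not pass, with Lilrb4a under 2 identifiers and Pilra too low to test. These 13 ran from -2.97 to 4.26 on the log2 scale, so some lay on the same side as Klrg1. The number of calls in this table rests on single libraries. Leaving out ionomycin replicate 1, 2 or 3 left 6, 3 or 5 called genes and 0 listed ones. Without vehicle replicate 2, 24 genes and 0 listed ones were called, and without vehicle replicate 3, 342 genes and 3 listed ones.

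The 8 genes picked for likeness to Klrg1 in the subset table were read in this table, which the choice did not use. Of the 5 most like it, Ly6c2 fell as given and Hopx fell by 3.01 on the log2 scale, from 164 ± 49.5 to 19.0 ± 2.92 TPM (SD, n = 3; limma, adjusted p = 0.00274). Cx3cr1 (0.24), Arl4c (-0.45) and S1pr5 (-1.57) did not pass. Of the 3 least like it, Cd27 rose as given and Klrb1 rose by 3.69 (limma, adjusted p = 0.0359), while Klra7 (0.58) did not pass. Hopx lost its call without any 1 ionomycin library (adjusted p from 0.0715 to 0.0861), and Klrb1 without any ionomycin library and without vehicle replicate 2 or 3 (adjusted p from 0.0851 to 0.268).

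With activating antibodies, Klrg1 was higher than in medium. Medium libraries stood at 42.1, 52.6 and 64.4 TPM (53.0 ± 11.1, SD, n = 3). With antibodies to NKp46 and NKG2D it was 64.2, 70.2 and 112 TPM (82.2 ± 26.1, SD, n = 3), and the lowest of these lay just under the highest medium library. With antibodies to NKp46 and DNAM-1 it was 80.6, 79.4 and 113 TPM (90.9 ± 18.8, SD, n = 3), all above medium. The log2 difference from medium was 0.60 (SE 0.302) for the NKG2D pair, 0.35 without replicate 3 of that pair, and 0.77 (SE 0.238) for the DNAM-1 pair. The antibody groups overlapped each other and differed by 0.17 (SE 0.296). Both comparisons share the medium libraries. Replicate 3 was the highest library of each group. Set against the medium library of the same number, Klrg1 was higher in 3 of 3 libraries with either antibody pair. The SE values above do not use these numbers as pairs, and the labels do not say whether same-numbered libraries share a mouse.

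Many genes differed as far in the same direction. Of the 13689 genes tested, 11.8% had a difference at least as high as that of Klrg1 with the NKG2D pair and 9.79% with the DNAM-1 pair. Grouped by the sample titles instead, the NKG2D pair differed from medium by 0.14 and the DNAM-1 pair by 0.62. Each title group mixes the 3 column groups. By titles, the medium group would hold the libraries at 42.1, 64.2 and 80.6 TPM. Genes above 0 numbered 13555 to 14674 in medium and 16107 to 18096 with antibodies. The 6 T cell markers summed to between 27.6 and 71.6 TPM in medium. The sums overlapped those with the NKG2D pair (20.8 to 28.55 TPM) and the DNAM-1 pair (20.1 to 39.6 TPM). Of these markers, Cd3e was 23.9, 4.54 and 31.4 TPM in medium and at most 8.72 TPM with antibodies. Cd3d means were 8.33 TPM in medium, 7.39 TPM with the NKG2D pair and 8.68 TPM with the DNAM-1 pair. The part of the gene numbers and of these markers in the Klrg1 difference was not tested.

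**Figure D4:**
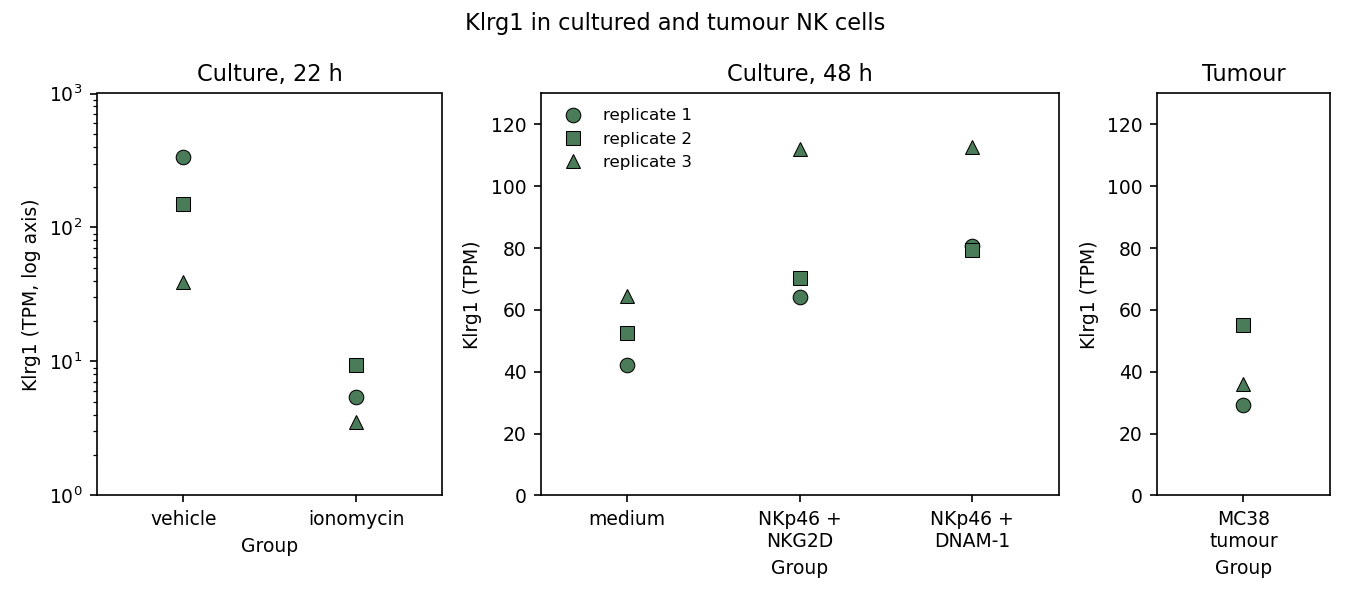
Klrg1 in TPM (y axis, logarithmic in the left panel) by group (x axis) in cultures of 22 h, cultures of 48 h and tumours, with 1 point per library and a marker shape per replicate number. The ionomycin points lie below all vehicle points, the points of the NKp46 and DNAM-1 pair lie above all medium points, and the 3 tumour points lie between 29.1 and 55.0 TPM.

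Limma called 0.431% of genes for the NKG2D pair (59 of 13689, 21 higher and 38 lower) and 0.782% for the DNAM-1 pair (107 of 13689, 39 higher and 68 lower). Of 47 list entries, 3 passed in each, and they were Ly6c2, Il7r and Lag3 in both. Ly6c2 fell from 288 ± 12.5 TPM in medium to 138 ± 17.4 and 132 ± 3.88 TPM (SD, n = 3), by 1.06 and 1.12 (limma, adjusted p = 0.00152 and 0.00133). Il7r, the interleukin-7 receptor chain of early cells, fell by 2.20 and 1.86 (limma, adjusted p = 0.00974 and 0.0231). It lost both calls without any 1 library of the antibody group compared (adjusted p from 0.0572 to 0.113), and the second also without medium replicate 1 or 2 (0.0621 and 0.0545). Lag3 rose from 9.16 ± 0.54 to 72.3 ± 21.9 and 64.2 ± 16.1 TPM (SD, n = 3), by 2.81 and 2.66 (limma, adjusted p = 0.000596 and 0.00101). None of these calls holds with the groups taken from the titles, each of which mixes the 3 column groups. By column, Lag3 ran from 8.65 to 9.72 TPM in medium and was at least 53.0 TPM in every antibody library. Over all genes, leaving out any 1 antibody library gave 28 to 32 calls for the NKG2D pair and 26 to 42 for the DNAM-1 pair. Without medium replicate 3 the calls were 257 and 516, and without medium replicate 2 the NKG2D pair gave 94.

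Here Ly6c2 and Klrg1 lay on opposite sides of medium, whereas both were lower with ionomycin and in TN cells. Over the 9 antibody and medium libraries the correlation with Klrg1 was -0.747 for Ly6c2, -0.913 for Arl4c and -0.921 for S1pr5, against 0.802 for Hopx and 0.552 for Cx3cr1. These 9 libraries fall into 3 groups, and the values are a description. Of the 8 likeness genes, only Ly6c2 passed with either antibody pair in the fit without a replicate block. With the NKG2D and the DNAM-1 pair, Cx3cr1 differed by 1.54 and 1.68 without passing (limma, adjusted p = 0.271 and 0.201).

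Tumour NK cells held 29.1, 55.0 and 36.1 TPM of Klrg1 (40.1 ± 13.4, SD, n = 3). No other group is in that table, so the level is given without a comparison. Klrg1 ranked 6 among the listed inhibitory receptors in each of the 3 libraries and stood above 66.0% to 80.7% of detected genes. Tigit stood at 440 ± 85.4 TPM and Klrb1b at 857 ± 41.3 TPM in the same cells (SD, n = 3). The 4 epithelial markers summed to at most 2.71 TPM in these libraries.

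The nearest expressed neighbours of Klrg1 were read from the GRCm38.p6 gene order. On one side M6pr, the cation-dependent mannose 6-phosphate receptor gene, lies next to it and Phc1, a Polycomb gene, is 2 protein-coding genes away. On the other side the first genes averaging 1 TPM or more are Usp18, an interferon-induced protease gene, and Tuba8, an alpha tubulin gene, 7 and 8 protein-coding genes away. In the sorted subsets M6pr, Phc1 and Usp18 passed in none of the 3 comparisons. M6pr differed by 0.002, -0.006 and 0.047 there, beside Klrg1 differences of -2.63, -1.65 and -1.61. Tuba8 rose in WT TN cells from 0.91 ± 0.59 to 4.98 ± 0.72 TPM (SD, n = 3), by 1.69 (limma, adjusted p = 0.0436), which was lost without any 1 of the 6 libraries (adjusted p from 0.0527 to 0.136). With ionomycin M6pr rose by 1.32 (limma, adjusted p = 0.0131) while Klrg1 was lower, a call lost without any 1 ionomycin library or vehicle replicate 2 (adjusted p from 0.0911 to 0.139).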

How the data were processed

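Per the labels' protocols, libraries were made from total RNA with a kit for mRNA. The authors deposited TPM rounded to 2 decimals in 4 tables, and the submitters' processing notes name STAR, RSEM and GRCm39, with versions and annotation not given in the sources used here. RSEM divides reads shared between genes, which touches Klr and Ly49 family members. TPM hold no depth. The subset table lists 32940 genes, and its library totals ran from 934292 to 948786. In the other tables every library total was 1000000. Groups were compared within a table only. Limma 3.58.1 in R 4.3.3 fitted log2(TPM + 1) with an intensity trend over genes averaging 1 TPM or more, two-sided. Genes were called at a Benjamini-Hochberg adjusted p under 0.05, adjusted over all genes of a table. The fits were tested on simulated data. Log2 differences of Klrg1 are differences of group means with an SE from the 2 groups, for 15 pairs.

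Klrg1 and the 6 lists (52 genes) were chosen with earlier results of these data known, so no count over a list is independent support. Called list members were named where 4 or fewer, otherwise the 2 largest rises and 2 largest falls. Uncalled members were given as ranges, except in lists of 3. Of 5 called late genes, S1pr5, Gzmb and Prf1 were named beyond that rule, after their values were seen. Likeness genes were the 5 highest and 3 lowest Pearson correlations, leaving out predicted genes. Each table carries a single batch date. Alternatives were another pseudocount (0.1), no filter, median-ratio rescaling, a replicate block, leaving out each library, and antibody groups by title.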

Additional observations from a re-analysis of the deposited data

How the results depend on the processing

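Klrg1 kept its direction in all 15 pairs under each alternative run. Of 123 recomputed differences 122 moved by less than 1 SD, pooled over the 2 groups. The exception was the NKp46 and NKG2D pair by titles (0.14). Leaving out 1 library gave 90 of these values. With 3 libraries per group that cannot move a difference by 1 such SD, nor reverse groups that do not overlap. These 90 values therefore carry no information for that count. The numbers of called genes moved as well. Leaving out 1 library gave 101 to 149 calls for WT TN against TP, 40 to 50 for KO TN against TP, 109 to 144 for KO TP against WT TP and 3 to 342 for ionomycin (listed genes 0 to 6). For the NKG2D pair it gave 28 to 257 (listed 2 to 6, and 257 was without medium replicate 3), and for the DNAM-1 pair 26 to 516 (listed 2 to 6, and 516 was without medium replicate 3). Without the filter on low values, ionomycin gave 185 calls (2 listed) and the DNAM-1 pair 45. By titles, each group mixes the 3 column groups. So grouped, the NKG2D pair gave 0 calls in limma (550 at an unadjusted p under 0.05, 0 listed) and the DNAM-1 pair 1 (0 listed). Lag3 with the NKG2D pair was reversed to -0.066. The cause of these moves was not tested. For the 27 genes followed singly (called list members, likeness genes and neighbours), 763 of 858 recomputed values stayed on their side of the threshold, 92 lost the call, 2 gained it and 1 reversed. List members not called in a comparison are covered by the counts of listed calls alone.

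The labels do not say whether same-numbered libraries share a mouse, although the columns of the subset and antibody tables join number and genotype. Their deviations from group means correlated by 0.010 on average among sorted subsets, 0.062 with ionomycin and vehicle and 0.064 with antibodies and medium. For other pairs the means were -0.005, -0.031 and -0.032. Subtracting group means largely fixes those values, so they are no separate baseline. At most 1 pair in a table was over 0.1. These correlations do not settle whether a mouse was shared, which remains possible. The main fit did not use the numbers as pairs, and gave 59 calls for the NKG2D pair and 107 for the DNAM-1 pair. A replicate block gave 12 listed calls for KO TN against TP, 239 calls (10 listed) for the NKG2D pair and 528 (11 listed) for the DNAM-1 pair, took the call from Tuba8 in WT TN cells (adjusted p = 0.0566) and gave one to Arl4c with the DNAM-1 pair (-0.76, adjusted p = 0.0304). Listed calls for ionomycin went from 6 to 9, and the other counts moved by less than 1.5 times. KO against WT has no such fit, since numbers lie within a genotype. With depth unknown, a low TPM has no counting error.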
